A study of Mus musculus with 6 samples.

Results

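The endothelial genes Kdr, Plvap, Cdh5, Pecam1, Emcn, Flt1, Flt4, Stab2, Tie1 and Egfl7 were followed in sorted blood stem and progenitor cells of mouse bone marrow. The 10 genes were taken by symbol, matched to the Ensembl identifiers of the count files, and all 10 were found among 55487 genes listed. They are markers of the cells that line blood vessels, and some are also transcribed in blood stem cells. The study made 3 libraries from wild-type mice (WT) and 3 from mice without Brm (BrmKO, Brm-/-), the gene now called Smarca2, whose product drives SWI/SNF complexes that shift nucleosomes. All mice carry the strain background C56Bl/6 in the labels. The sources used here give neither the age and sex of the mice nor how Brm was inactivated. Leg bone marrow was depleted of cells with lineage markers, and lineage-negative cells that stained for c-KIT and SCA1 (LSK cells) were taken by flow cytometry. SCA1 is also carried by endothelial cells, and the stains the labels name are a lineage cocktail, c-KIT and SCA1.

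Endothelial cells sense vascular endothelial growth factors (VEGF) through the receptor tyrosine kinases KDR, FLT1 and FLT4, and angiopoietins through TEK with its partner TIE1. In the marrow, thin-walled sinusoids lined by KDR- and FLT4-bearing cells form the vessel bed through which blood cells enter the circulation. Blood stem cells arise from endothelium in the embryo and keep some of its genes in the adult, among them Pecam1, Emcn, Tie1 and Egfl7. The description is ordered accordingly: VEGF receptors, then the sinusoid, fenestra and junction genes Stab2, Plvap and Cdh5, then the genes shared with stem cells. That division follows textbook knowledge and was made with the values known.

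The libraries held 28.01 to 36.46 M reads in genes. Reads on Smarca2 numbered 6284, 6932 and 4270 for WT and 805, 761 and 958 for BrmKO, a fall to 15.1% of the WT level (log2 fold change -2.72 ± 0.13 SE, edgeR quasi-likelihood test, Benjamini-Hochberg adjusted p = 2.97e-05). Kit and Ly6a, which encode the sorted markers c-KIT and SCA1, and 6 other genes of LSK and blood cells (Ly6e, Ptprc, Cd34, Flt3, Slamf1, Cd48) had a summed level of 3923 to 4210 CPM (reads per M reads in genes, on TMM-scaled library sizes) in every library. Of that sum Ly6a gave 18.7, 24.3 and 31.1 CPM in WT and 26, 29.9 and 35.7 CPM in BrmKO. Kit and Ly6a were both lowest in WT replicate 1, Kit at 849 CPM there. The 10 endothelial genes summed to 441, 379 and 347 CPM in WT replicates 1 to 3 and to 349, 336 and 335 CPM in BrmKO replicates 1 to 3. The gap between WT replicate 1 and the rest came from part of the set: Kdr, Plvap, Cdh5, Flt1, Flt4 and Stab2 summed to 122 CPM there, to 46.1 and 40.8 CPM in the other WT libraries and to 19.1, 18.5 and 34.2 CPM in BrmKO. Of the 9364 reads on these 6 genes, 47.3% lay in WT replicate 1. Pecam1, Emcn, Tie1 and Egfl7 summed to 319, 333 and 306 CPM in WT and 330, 317 and 301 CPM in BrmKO, so that the libraries of the genotypes overlapped. WT replicate 1 was the highest library for 6 of the 10 genes, all of the first set, and it was the highest for 14.9% of all genes tested. That set was parted from the other 4 with the values known, so the split and its share of reads are a description only.

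RefSeq promoter windows on GRCm38.p6, from 250 bases before to 50 bases after an annotated start, were matched for 7 of the 10 genes, as 9 windows because Egfl7 has 3. Those of 4 genes are printed: the VEGF receptor genes Kdr and Flt1, Stab2, whose level varied most of the 10 between libraries, and Tie1, whose level varied little. Capitals mark the ETS motifs CCGGAA and AGGAAG on either strand. ETS factors such as ERG and FLI1 act in endothelium and in blood stem cells alike.
Kdr: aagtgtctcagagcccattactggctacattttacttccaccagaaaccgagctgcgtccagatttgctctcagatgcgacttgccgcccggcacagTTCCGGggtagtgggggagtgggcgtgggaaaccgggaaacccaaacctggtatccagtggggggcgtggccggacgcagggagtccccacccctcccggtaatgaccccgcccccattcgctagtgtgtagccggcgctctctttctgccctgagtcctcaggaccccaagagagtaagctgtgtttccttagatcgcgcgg
Flt1: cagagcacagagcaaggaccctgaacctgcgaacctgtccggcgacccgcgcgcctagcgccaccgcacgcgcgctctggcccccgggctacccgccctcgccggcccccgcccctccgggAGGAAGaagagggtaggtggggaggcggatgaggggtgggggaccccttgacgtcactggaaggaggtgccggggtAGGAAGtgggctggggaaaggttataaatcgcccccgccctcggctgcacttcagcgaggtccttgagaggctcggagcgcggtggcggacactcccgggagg
Stab2: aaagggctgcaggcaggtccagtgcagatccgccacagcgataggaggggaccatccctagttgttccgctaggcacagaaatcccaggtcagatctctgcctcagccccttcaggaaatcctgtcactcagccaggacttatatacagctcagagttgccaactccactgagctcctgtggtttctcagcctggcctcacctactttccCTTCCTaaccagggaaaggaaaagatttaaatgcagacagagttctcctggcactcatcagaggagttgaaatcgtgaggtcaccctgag
Tie1: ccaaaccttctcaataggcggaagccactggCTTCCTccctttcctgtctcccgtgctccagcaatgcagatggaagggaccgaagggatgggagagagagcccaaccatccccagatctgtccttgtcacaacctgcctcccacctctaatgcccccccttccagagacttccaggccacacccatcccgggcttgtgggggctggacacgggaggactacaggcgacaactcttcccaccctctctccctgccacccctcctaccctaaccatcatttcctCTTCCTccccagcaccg
The windows are chr5:75978406-75978705 on the minus strand for Kdr, chr5:147725962-147726261 on the minus strand for Flt1, chr10:87007893-87008192 on the minus strand for Stab2 and chr4:118489800-118490099 on the minus strand for Tie1. AGGAAG was found in 6 of the 9 windows, those of Emcn, Flt1, Stab2, Tie1 and 2 of Egfl7, against 35.4% of all 32851 windows of the same length. CCGGAA was found in 1 window, that of Kdr, against 14.9% of all windows, and the window of Flt4 held neither. Motifs were searched on both strands, and these matches are letters in a window. The TATA box TATAAA lay in the Flt1 window alone among the 9 (13.6% of all windows), and the GC box GGGCGG in those of Kdr, Flt1, Flt4 and 1 of Egfl7 (35.7% of all). GATAAG and ACAATG, searched for GATA and SOX factors, were in 0 of the 9 (7.44% and 12.6% of all), TGTGGT, searched for RUNX factors, was in that of Stab2 (16.8% of all), and CANNTG, the E-box, was in 6 of 9 (72.3% of all).

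None of the 10 genes passed in the comparison of BrmKO with WT (edgeR quasi-likelihood test, adjusted p under 0.05 over 15691 genes tested), where 0.140% of all genes passed. All 10 passed the filter on low counts. An unadjusted p under 0.05 with a lower level in BrmKO was found for 3 of them, Kdr, Plvap and Flt4, against 2.71% of all genes. The log2 fold change was below 0 in 9 of 10, against 51.2% of all genes, and below -1 in 6 of 10, against 2.15%, with a median of -1.20 beside -0.01 over all genes tested. Without WT replicate 1 the median was -0.50, beside -0.01 over all genes, and 2 of 10 (Flt4 and Stab2) remained below -1, against 2.40% of all genes. In that fit 8 of 10 lay below 0, against 51.3%, and 2 of 10 (Kdr and Plvap) had an unadjusted p under 0.05 with a lower level in BrmKO, against 1.89%. In bulk RNA, fewer cells of a type in the sort and less RNA per cell cannot be told apart.

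**Figure D1:**
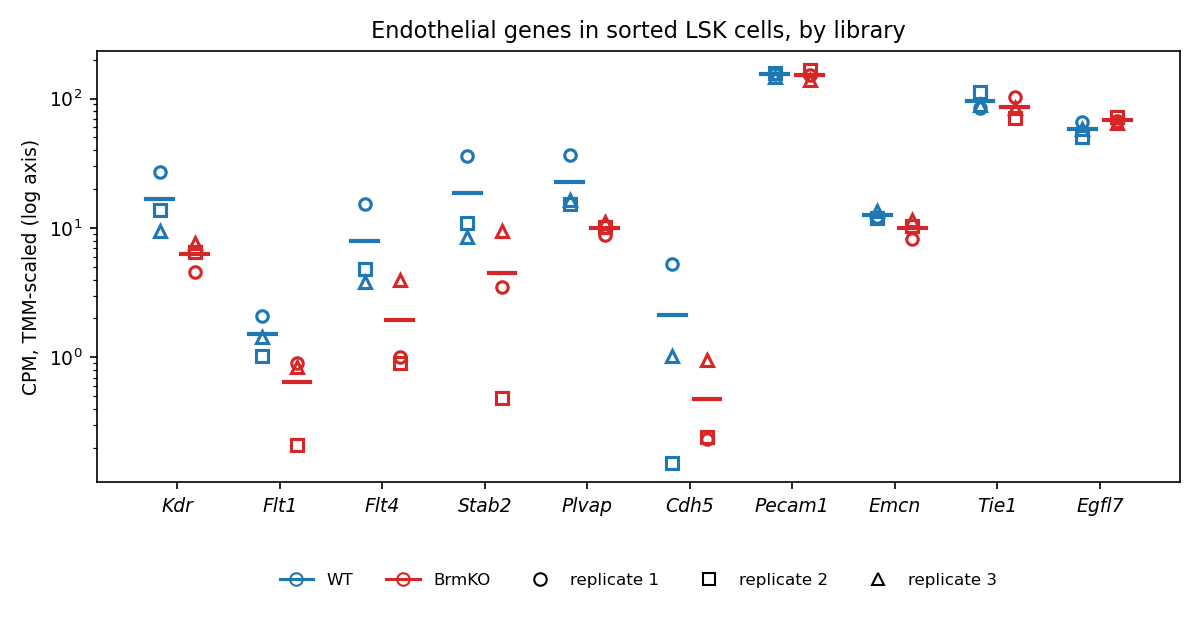
Level of each endothelial gene in each library, in CPM on a log axis; points are libraries (blue WT, red BrmKO, shape by replicate number) and bars are group means. WT replicate 1 is the highest point for Kdr, Flt1, Flt4, Stab2, Plvap and Cdh5. The points of Kdr, Plvap, Flt1 and Emcn do not overlap between genotypes, while those of Flt4, Stab2, Cdh5, Pecam1, Tie1 and Egfl7 do.

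Kdr encodes VEGF receptor 2, the main signalling receptor for VEGF-A (ENSMUSG00000062960.10, GRCm38 chromosome 5, 75932827 to 75978458, minus strand). It had 987, 449 and 270 reads in WT replicates 1 to 3 and 137, 187 and 265 in BrmKO replicates 1 to 3. On the scale of CPM the WT libraries stood at 27.3, 13.8 and 9.49 and the BrmKO libraries at 4.58, 6.52 and 7.71. Each BrmKO library lay under each WT library, and the distance between the lowest WT and the highest BrmKO value was small beside the spread within WT. The means were 16.9 ± 9.26 and 6.27 ± 1.58 CPM (SD, n = 3), and the log2 fold change was -1.43 ± 0.37 (SE), which did not pass (edgeR adjusted p = 0.355). Without WT replicate 1 it was -0.89 ± 0.28 (adjusted p = 0.895).

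Flt1 encodes VEGF receptor 1, which binds VEGF-A tightly and, in its soluble form, acts as a decoy (ENSMUSG00000029648.13, chromosome 5, 147561604 to 147726011, minus strand). It was the scarcest of the 10 per length, with 76, 33 and 41 reads in WT and 27, 6 and 29 in BrmKO. Levels were 2.10, 1.02 and 1.44 CPM against 0.903, 0.209 and 0.843 CPM, with no overlap between the groups and the lowest value in BrmKO replicate 2. The log2 fold change of -1.21 ± 0.57 did not pass (edgeR adjusted p = 0.871), and without WT replicate 1 it was -0.90 ± 0.65 (adjusted p = 0.999).

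Flt4 encodes VEGF receptor 3, the receptor for VEGF-C and VEGF-D, found on lymphatic vessels and on marrow sinusoids (ENSMUSG00000020357.3, chromosome 11, 49609263 to 49652739, plus strand). Read counts were 552, 156 and 109 in WT and 30, 26 and 137 in BrmKO. In CPM these were 15.2, 4.80 and 3.83 against 1.0, 0.906 and 3.98. BrmKO replicate 3 lay above WT replicate 3, so the groups overlapped, while the other BrmKO libraries were lower than each WT library. The difference, a log2 fold change of -2.01 ± 0.71, did not pass (edgeR adjusted p = 0.724), and it was -1.13 ± 0.62 without WT replicate 1 (adjusted p = 0.999).

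Stab2 encodes stabilin-2, a scavenger receptor that clears hyaluronan and is a marker of sinusoidal endothelium (ENSMUSG00000035459.18, chromosome 10, 86841198 to 87008025, minus strand). It had 1302, 356 and 241 reads in WT and 105, 14 and 325 in BrmKO. The level spanned 73.7-fold between the highest library, WT replicate 1 at 36.0 CPM, and the lowest, BrmKO replicate 2 at 0.488 CPM. BrmKO replicate 3, at 9.45 CPM, lay between the WT replicates, which otherwise stood at 11.0 and 8.47 CPM. Means were 18.5 ± 15.2 and 4.48 ± 4.56 CPM, and the log2 fold change of -2.03 ± 1.06 did not pass (edgeR adjusted p = 0.942). Without WT replicate 1 it was -1.11 ± 0.96 (adjusted p = 0.999).

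Plvap encodes the protein that builds the diaphragms of endothelial fenestrae and caveolae (ENSMUSG00000034845.6, chromosome 8, 71497765 to 71511752, minus strand). Its reads numbered 1324, 499 and 469 in WT and 264, 291 and 386 in BrmKO. Levels were 36.6, 15.4 and 16.5 CPM against 8.83, 10.1 and 11.2 CPM. As for Kdr, every BrmKO library lay under every WT library. The BrmKO libraries also differed little among themselves, with means of 22.8 ± 11.9 and 10.1 ± 1.20 CPM. Their log2 fold change was -1.18 ± 0.31 (edgeR adjusted p = 0.388), and -0.66 ± 0.18 without WT replicate 1 (adjusted p = 0.769).

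Cdh5 encodes VE-cadherin, the adhesion protein of endothelial adherens junctions (ENSMUSG00000031871.9, chromosome 8, 104101625 to 104144511, plus strand). It had 190 reads in WT replicate 1 but 5 and 29 in the other WT libraries, and 7, 7 and 33 in BrmKO. A single library thus carried most of the reads of this gene, and WT replicate 2, at 0.154 CPM, was the lowest of all 6. The log2 fold change was -2.14 ± 1.08 with all libraries (edgeR adjusted p = 0.902) and -0.27 ± 0.96 without WT replicate 1 (adjusted p = 0.999).

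The groups did not overlap, with BrmKO lower, for 4 of the 10 genes (Kdr, Plvap, Flt1 and Emcn), against 5.37% of all genes tested. DESeq2, run as an alternative on the same libraries, called 2 of the 10, Kdr (adjusted p = 0.00771, with 0.00771 to 0.895 over all alternatives) and Plvap (adjusted p = 0.0141, with 0.0141 to 0.895), where it called 0.376% of all genes lower. With WT replicate 1 left out, DESeq2 called 0 of the 10, and the adjusted p was 0.357 for Kdr and 0.187 for Plvap; limma-voom called 0 with all libraries. The lower BrmKO levels of Kdr and Plvap kept their direction in each of these fits.

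**Figure D2:**
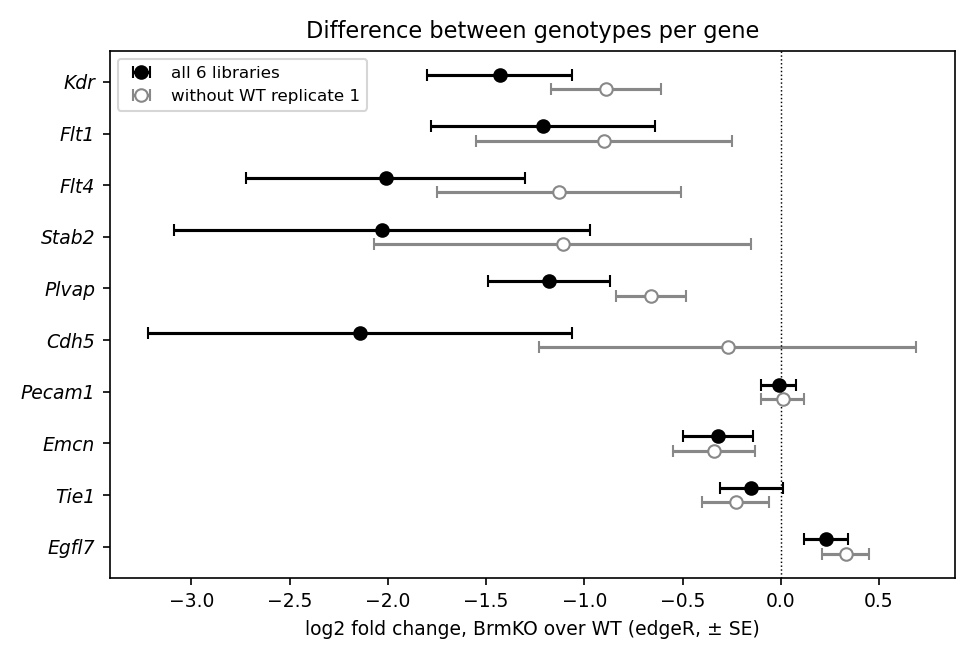
Log2 fold change of each gene, BrmKO over WT, from edgeR with its SE (bars), for all 6 libraries (filled) and without WT replicate 1 (open). Leaving out that library moves Cdh5 from -2.14 to -0.27 and Kdr from -1.43 to -0.89, while Pecam1 stays within 0.01 of 0.

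Pecam1 encodes CD31, an adhesion molecule of endothelium that platelets, leukocytes and stem cells also carry (ENSMUSG00000020717.19, chromosome 11, 106654217 to 106750628, minus strand). Counts were 5659, 5126 and 4140 in WT and 4549, 4739 and 4802 in BrmKO, and levels 156, 158 and 146 CPM against 152, 165 and 140 CPM. It was the most even of the 10, with 1.18-fold between its highest and lowest library. BrmKO and WT differed by a log2 fold change of -0.01 ± 0.09 (edgeR adjusted p = 0.999).

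Emcn encodes endomucin, a sialomucin of capillary and venous endothelium that also marks blood stem cells (ENSMUSG00000054690.17, chromosome 3, 137341067 to 137432185, plus strand). It had 438, 387 and 384 reads in WT and 247, 297 and 395 in BrmKO. The levels, 12.1, 11.9 and 13.5 CPM in WT and 8.26, 10.3 and 11.5 CPM in BrmKO, did not overlap, though the highest BrmKO library came close to the lowest WT library. The log2 fold change was -0.32 ± 0.18 (edgeR adjusted p = 0.933), and -0.34 ± 0.21 without WT replicate 1, so the size of this difference did not rest on that library. Without BrmKO replicate 1, the lowest library for Emcn, it was -0.19 ± 0.18.

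Tie1 encodes an orphan receptor tyrosine kinase that pairs with TEK in angiopoietin signalling (ENSMUSG00000033191.14, chromosome 4, 118471191 to 118490061, minus strand). It had 3052, 3681 and 2531 reads in WT and 3072, 2012 and 2927 in BrmKO. WT replicate 2 was highest at 113 CPM and BrmKO replicate 2 lowest at 70.1 CPM, with the other libraries mixed between 84.3 and 103 CPM. The resulting log2 fold change was -0.15 ± 0.16 (edgeR adjusted p = 0.999).

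Egfl7 encodes a secreted protein of the vessel matrix, and its gene also holds the microRNA miR-126 (ENSMUSG00000026921.20, chromosome 2, 26580014 to 26593120, plus strand). It was the only one of the 10 with a log2 fold change above 0, at 0.23 ± 0.11 (edgeR adjusted p = 0.902). Counts were 2393, 1632 and 1647 in WT and 2006, 2058 and 2237 in BrmKO, and levels 66.1, 50.2 and 57.9 CPM against 67.1, 71.7 and 65.1 CPM. WT replicate 1 lay among the BrmKO libraries and the other WT libraries under them. Of the exonic bases of Egfl7, 11.2% are shared with other annotated genes: Gm20532 (264 bases) and Mir126a on the same strand, and Agpat2 and Mir126b on the other. Reads on shared bases count as ambiguous, so the level of Egfl7 may be understated. For genes on the other strand this holds only if counting ignored strand, a setting the sources used here do not give. Mir126a and Mir126b themselves had 0 reads in every library. They share 73 and 58 bases with Egfl7 exons, where reads count as ambiguous, for Mir126b only if strand was ignored. The 0 thus says little of their level. All libraries were made from polyadenylated RNA.

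Levels can be compared between genes once divided by length, here the exonic bases of the annotation in kb. In WT the order was Pecam1 at 24.6 ± 1.07 CPM per kb, Tie1 at 19.4 ± 3.16, Egfl7 at 16.2 ± 2.22, Plvap at 11.5 ± 6.00, Emcn at 2.31 ± 0.161, Stab2 at 2.11 ± 1.74, Kdr at 1.87 ± 1.03, Flt4 at 0.967 ± 0.769, Cdh5 at 0.509 ± 0.648 and Flt1 at 0.112 ± 0.0404 (SD, n = 3). Only Pecam1 and Tie1, and Plvap and Emcn, were neighbours whose WT libraries did not overlap. In BrmKO, Egfl7 (19.0 ± 0.952) stood above Tie1 (17.5 ± 3.32), with overlapping libraries, and Kdr (0.694 ± 0.175) above Stab2 (0.512 ± 0.521), likewise overlapping. Plvap was the most abundant of the 6 genes that were high in WT replicate 1, at 5.06 ± 0.605 CPM per kb in BrmKO. The VEGF receptors ranked Kdr, Flt4 and Flt1 in both genotypes.

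The ratios between genes within a library were also uneven. For each Kdr read there were 1.32, 0.793 and 0.893 Stab2 reads in WT and 0.766, 0.0749 and 1.23 in BrmKO, so BrmKO replicate 2 kept Kdr reads at nearly no Stab2. Plvap stayed nearer to Kdr, with 1.34, 1.11 and 1.74 reads per Kdr read in WT and 1.93, 1.56 and 1.46 in BrmKO. Stab2 and Flt4 held 2.36, 2.28 and 2.21 to 1 in WT and 2.37 to 1 in BrmKO replicate 3, the 4 libraries with over 100 reads of each gene, and 3.50 and 0.538 to 1 in BrmKO replicates 1 and 2, where Flt4 had 30 and 26 reads. Pecam1, in contrast, ran from 5.73 reads per Kdr read in WT replicate 1 to 33.2 in BrmKO replicate 1.

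**Figure D3:**
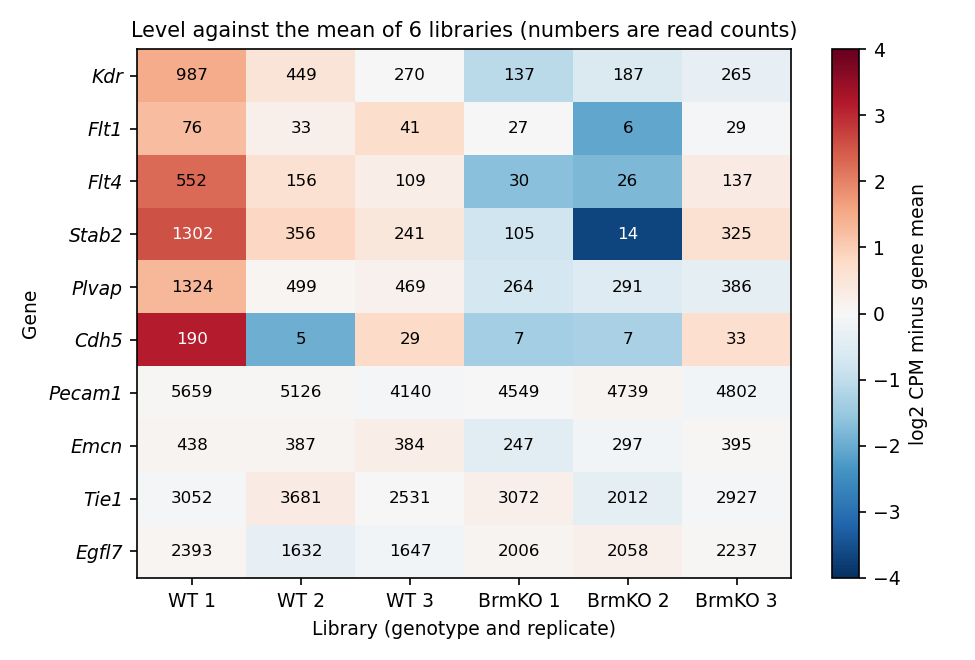
Each gene (rows) in each library (columns), coloured by log2 CPM minus the gene's mean over 6 libraries; the numbers are read counts. WT replicate 1 is red for Kdr, Flt1, Flt4, Stab2, Plvap and Cdh5, BrmKO replicate 2 is bluest for Stab2 with 14 reads, and the 4 lower rows are near white.

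Over the 6 libraries, the genes most like Kdr in log2 CPM were Pcnp (Pearson r = 0.984), Gda (0.984), Gnl3 (0.979), Degs1 (0.977) and Jam2 (0.977), among 15690 genes ranked. The points share library and depth, so this is a description only. Pearson r does not measure the size of a change. From lowest to highest library Pcnp, Gnl3 and Degs1 spanned 1.25-, 1.13- and 1.28-fold, and Gda and Jam2 2.59- and 3.3-fold, against 5.95-fold for Kdr. Of these, Jam2, a junction adhesion molecule of endothelium and stem cells, had 112, 61 and 45 reads in WT and 28, 33 and 36 in BrmKO, while Gda, guanine deaminase, had 313, 210 and 152 against 100, 107 and 165. Among the endothelial genes, Plvap ranked 16th with r = 0.962 and Flt4 56th with r = 0.927, followed by Stab2 (0.747), Cdh5 (0.678), Emcn (0.658) and Flt1 (0.627). Pecam1 (0.154), Tie1 (0.051) and Egfl7 (-0.335) did not follow Kdr.

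Ligands and partners of these receptors showed no gene that passed. Of 7 VEGF ligands and co-receptors, 5 were tested, 0 passed and 0 had an unadjusted p under 0.05 (median log2 fold change 0.02, and 0.11 without WT replicate 1). Vegfa, Vegfb and Vegfc were transcribed in every library, at 352 to 569, 697 to 1023 and 159 to 252 reads, while Vegfd had 0 reads throughout. The co-receptor Nrp2 followed WT replicate 1, with 180 reads there, 72 and 64 in the other WT libraries and 66, 1 and 77 in BrmKO (-1.07 ± 0.88, edgeR adjusted p = 0.999). Of 7 genes of the angiopoietin pathway, 5 were tested and 0 passed (median -0.45, and -0.14 without WT replicate 1). Of these, 1, Tek, had an unadjusted p under 0.05, lower in BrmKO (2.71% of all genes). Angpt1, the ligand that blood stem cells themselves make, stood at 6801 to 8513 reads in WT and 6536 to 7867 in BrmKO (-0.11 ± 0.08), and its receptor Tek had a log2 fold change of -0.45 ± 0.19 (edgeR adjusted p = 0.811). Ptprb, the endothelial phosphatase that acts on TEK, had 99, 34 and 25 reads in WT and 0, 11 and 39 in BrmKO.

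Among 14 endothelial genes known also from blood stem cells, all tested, 0 passed and the median was -0.04, or -0.14 without WT replicate 1. Jam2 (-1.06 ± 0.38), Tek and S1pr1 (-0.29 ± 0.17) had the smallest p, and 2 had an unadjusted p under 0.05, both lower, against 2.71% of all genes. Of 23 transcription factors of endothelium, 17 were tested and 0 passed (median -0.04, and 0.01 without WT replicate 1), and Sox18, a SOX factor of vessels, was the only one with an unadjusted p under 0.05 (2.71% of all genes, counting lower levels in BrmKO). It had 222, 74 and 41 reads in WT and 39, 35 and 61 in BrmKO (-1.20 ± 0.51, edgeR adjusted p = 0.828). Erg and Fli1, ETS factors of both endothelium and stem cells, had log2 fold changes of 0.11 ± 0.12 and -0.14 ± 0.09.

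Among other endothelial genes, most had lower mean levels in BrmKO and none passed in edgeR. Of 19 listed, 18 were tested, 0 passed, and 7 had an unadjusted p under 0.05 with a lower level in BrmKO (2.71% of all genes) and 1, Adgrl4, with a higher level (0.28 ± 0.12). The 7 include Sox18, counted above. The median was -1.16, and -0.37 without WT replicate 1, and 13 of the 18 were highest in WT replicate 1, against 14.9% of all genes. Mmrn2, an extracellular matrix protein of endothelium, had 308, 114 and 110 reads in WT and 9, 0 and 32 in BrmKO (edgeR adjusted p = 0.327). Clec14a, an endothelial lectin, had 225, 54 and 32 against 29, 15 and 22 (adjusted p = 0.574), and Tspan18 had 151, 19 and 68 against 17, 4 and 32 (adjusted p = 0.738). The groups did not overlap for Mmrn2 and Clec14a and overlapped for Tspan18. The junction protein Cldn5 had 339, 38 and 80 reads in WT and 45, 56 and 106 in BrmKO, and Cav1, an abundant caveolar gene of capillaries, had at most 6 reads in any library. Ramp2, a defining marker as well, had 94, 27 and 28 reads against 25, 18 and 61. Ecscr, a further endothelial marker, had 90, 59 and 40 reads against 67, 38 and 83 (0.07 ± 0.37). Nos3 (0.47 ± 0.53) and Shank3 (0.04 ± 0.26) also had log2 fold changes above 0.

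Of 16 sinusoid and scavenger genes, 14 were tested and 0 passed (median -1.19, and -0.46 without WT replicate 1). Of the 14, 13 lay below 0, against 51.2% of all genes. An unadjusted p under 0.05 was found for 5, all lower in BrmKO, against 2.71% of all genes. Stab1, the paralog of Stab2 that macrophages also carry, had 522, 109 and 116 reads in WT and 62, 38 and 37 in BrmKO, with no overlap (-2.29 ± 0.56, edgeR adjusted p = 0.322). Fabp4, a fatty acid binding protein of microvessels and fat, had 727, 160 and 84 against 49, 26 and 131 reads. Selp, or P-selectin, is shared with platelets (-0.78 ± 0.19, adjusted p = 0.305), and Lyve1 had 0 reads in all libraries. Of 12 arterial genes, 11 were tested, 0 passed, 0 had an unadjusted p under 0.05 and the median was -0.18, or -0.07 without WT replicate 1. Hey1 (-1.27 ± 0.87), Dll4 (-0.87 ± 0.62) and Jag1 (0.90 ± 0.93) had the smallest p. Whether the sinusoid and arterial lists differ was not tested.

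**Figure D4:**
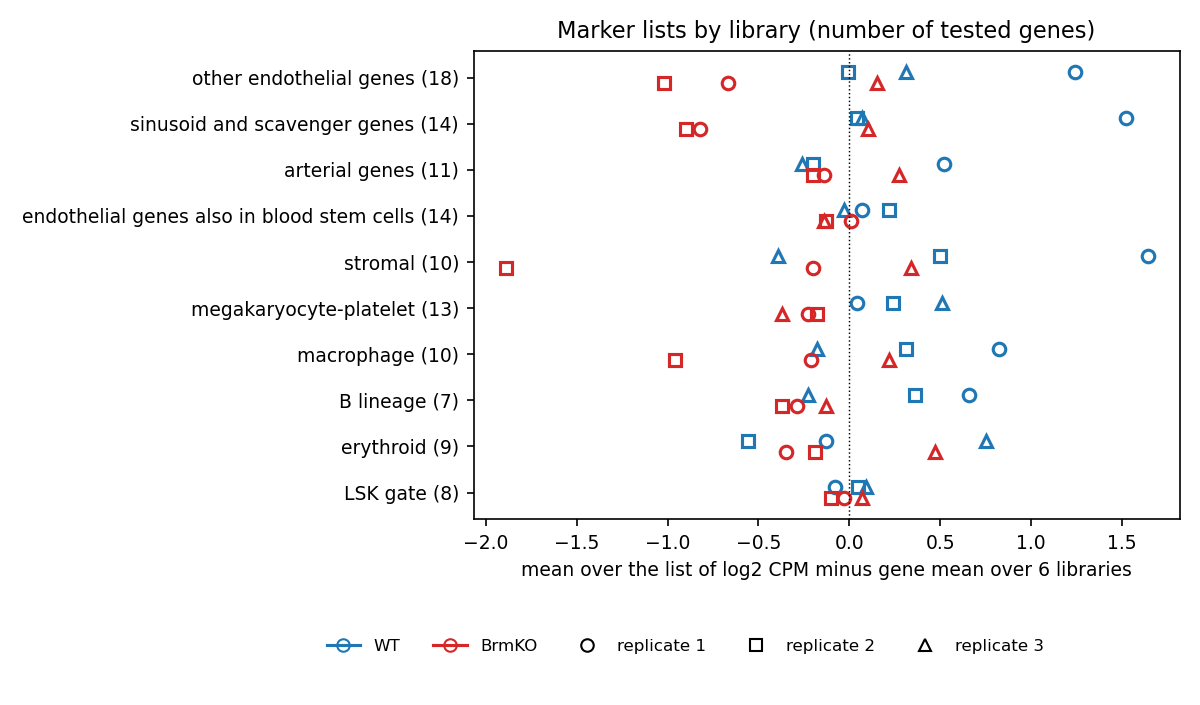
Mean over each marker list of log2 CPM minus the gene mean over 6 libraries, by library (blue WT, red BrmKO, shape by replicate number; tested genes per list in brackets). WT replicate 1 lies farthest right for sinusoid genes at 1.52 and stromal genes at 1.64, while the LSK genes stay between -0.10 and 0.09.

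Some markers of other marrow cells were high and low in the same libraries as the endothelial genes. Stromal markers (12 listed, 10 tested, 0 passed, median -1.60) summed to 337, 223 and 190 CPM in WT and 202, 175 and 272 CPM in BrmKO. Of the 10 tested, 5 had an unadjusted p under 0.05, all lower in BrmKO, against 2.71% of all genes. The mean deviation of the stromal list ran 1.64, 0.50 and -0.39 over the WT and -0.20, -1.89 and 0.34 over the BrmKO libraries. WT replicate 1 was highest and BrmKO replicate 2 lowest, as for Stab2. Of the stromal sums, Pdgfrb alone gave 149, 163 and 167 CPM in WT and 152, 164 and 136 CPM in BrmKO. The genotypes overlapped for Pdgfrb (-0.09 ± 0.10). Without WT replicate 1 the stromal median was -0.74, over 9 genes tested. Pdgfra, a defining marker, had 27, 19 and 21 reads in WT and 0 in each BrmKO library (edgeR adjusted p = 0.0849), and Lepr had 399, 105 and 41 against 25, 0 and 18. Other members of the stromal list had fold changes above 0 with wide errors: Col1a1 at 1.41 ± 1.68, Col1a2 at 0.68 ± 1.30 and Dcn, the matrix proteoglycan decorin, at 1.05 ± 0.90 (edgeR adjusted p = 0.999 for each). These 3 were highest in BrmKO replicate 3. Macrophage markers (12 listed, 10 tested, 0 passed, median -0.49, and -0.18 over 11 tested without WT replicate 1) ranged from 186 to 264 CPM in WT and from 165 to 196 CPM in BrmKO. Of the 10 macrophage genes tested, 1, Vcam1, had an unadjusted p under 0.05, lower in BrmKO (2.71% of all genes). Vcam1 (-2.38 ± 0.92) and Mrc1 (-2.00 ± 0.99) of that list were counted among the sinusoid genes as well. C1qb (0.21 ± 0.44), Cd68 (0.07 ± 0.13) and Cd163 (0.14 ± 0.12) lay above 0, and Adgre1 was lowest in WT replicate 1. B lineage markers (9 listed, 7 tested, 0 passed, median -0.45, and -0.31 without WT replicate 1) were also highest in WT replicate 1, at 1371 CPM against 622 to 772 CPM in the other 5 libraries, and 46739 of the reads there were on Ighm. Of the 7 tested, 2 had an unadjusted p under 0.05, both lower in BrmKO (2.71% of all genes). Megakaryocyte and platelet markers, whose list shares Selp and Vwf with the endothelial lists above, summed to 1155, 1365 and 1026 CPM in WT and 993, 981 and 729 CPM in BrmKO. Of 14 listed, 13 were tested, with a median of -0.56, and -0.61 without WT replicate 1. All 13 lay below 0, against 51.2% of all genes, and 4 had an unadjusted p under 0.05, all lower, against 2.71%. In this list 1 passed lower, Pf4 (-0.60 ± 0.09, edgeR adjusted p = 0.0391, and 0.0564 to 0.291 with each library left out in turn), and 0 were highest in WT replicate 1. Erythroid markers (9 tested, 0 passed, median -0.07, and -0.19 without WT replicate 1) ran from 515 to 859 CPM in WT and 469 to 783 CPM in BrmKO, and the LSK genes (8 tested, 0 passed) had a median of -0.01, or -0.05 without WT replicate 1. The part of these other cells in the endothelial values was not tested.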

How the data were processed

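RNA of sorted LSK cells was measured in 6 libraries, 3 per genotype. Per the labels' protocols the kit was Smart-Seq v4, which does not mark strand and carries no molecular identifiers. The deposited values are raw read counts per Ensembl gene. The submitters' processing notes name bcl2fastq, FastQC, STAR, HTSeq and DESeq2 with build GRCm38; the sources used here give no versions and no strand setting. The 5 rows that name no gene were left out of library sizes; reads outside genes made up 5.79% to 9.29% of a library and ambiguous reads 6.23% to 6.47%. Symbols and positions came from GENCODE M21, which matched 55227 of 55487 identifiers. No member had a near-identical copy (minimap2 2.31, 95% identity over 50% of the longest transcript).

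BrmKO was compared with WT using edgeR 4.0.16 in R 4.3.3 (quasi-likelihood, robust, TMM factors, filterByExpr, no covariate) over all genes, with Benjamini-Hochberg adjustment and a threshold of 0.05. Fold changes are BrmKO over WT ± SE, levels mean ± SD. The test was tried on simulated data first. Alternatives were RLE factors, DESeq2 1.42.0, limma-voom (3.58.1), no filter, a replicate block and leaving out libraries. A count of 0 allows up to 3 reads, or 0.0823 to 0.107 CPM per library, from counting error only. Each genotype had 3 mice, per the series' design text, and its libraries were taken as separate animals.

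The genes described and the 13 context lists were chosen with earlier results of these data known. Some lists share genes, among them Sox18, Tek, Ptprb, Ackr1, Hey1, Sox17, Vegfc and Cd34, so the counts per list are not independent. All 10 members were named, up to 3 genes per list by smallest p, any list gene that passed, and the 5 genes most like Kdr with a mean of at least 1 CPM; other names were chosen after their values were seen.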

Additional observations from a re-analysis of the deposited data

How the results depend on the processing

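No member passed in edgeR with RLE factors, no low-count filter or the replicate block, in limma-voom, or in any of the 6 fits that left out 1 library (0 of 10 in each); DESeq2 called 2, Kdr and Plvap (adjusted p = 0.00771 and 0.0141). Over 129 fold changes in all the direction was that of the reported value in all but 5, all of Pecam1, which ran from -0.07 to 0.05 with single libraries left out (above 0 without either of WT replicates 1 and 2 or without BrmKO replicate 3) and stood at 0.02 without both libraries numbered 3 and 0.01 in DESeq2 without WT replicate 1. The last 2 settings were chosen after seeing the data, and Cdh5 could not be fitted without both libraries numbered 3 because the filter removed it. Leaving out single libraries moved the log2 fold change of Kdr between -1.71 and -0.89, Plvap between -1.40 and -0.66, Flt4 between -3.06 and -1.13, Stab2 between -3.20 and -1.11 and Cdh5 between -3.15 and -0.27. For Flt1 it ran from -1.50 to -0.80, for Emcn from -0.43 to -0.19, for Tie1 from -0.30 to -0.01 and for Egfl7 from 0.13 to 0.33. Of all genes, 22 passed in the reported fit, 150 with DESeq2, 77 with DESeq2 without WT replicate 1 and 58 with no filter. With 1 library left out, 6 to 36 passed; leaving out WT replicates 1 to 3 in turn gave 7, 6 and 36, and leaving out BrmKO replicate 1 gave 9; the cause was not tested. On raw library totals the summed level of the 10 genes in BrmKO replicate 3 was 347 CPM, against 335. With the replicate block 25 genes and 0 members passed. Same-numbered libraries deviated together with r = 0.0518, 0.00775 and 0.194, the last the largest of any WT with any BrmKO library. WT replicate 2 correlated best with BrmKO replicate 1 (r = 0.168), so the numbers were not taken to pair the samples. The libraries numbered 3 had the most reads outside genes, 8.41% for WT and 9.29% for BrmKO. Without both, the log2 fold change was -3.39 ± 0.56 for Flt4 (edgeR adjusted p = 0.0864) and -3.54 ± 1.23 for Stab2 (adjusted p = 0.528), and 0 members passed. Counts under about 30 reads, as for Cdh5 in 4 libraries, limit what could be detected.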

Other observations

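Col1a1, Col1a2 and Siglec1 had their highest levels in BrmKO replicate 3, and the collagen genes their next highest in WT replicate 1. Col1a1 and Col1a2, members of the stromal list that encode the chains of type I collagen of bone-forming cells, had 1996 and 1837 reads in BrmKO replicate 3, 530 and 469 in BrmKO replicate 1, and 67 and 139 in BrmKO replicate 2. In WT replicate 1 they had 944 and 1320 reads, in WT replicate 2 they had 47 and 196, and in WT replicate 3 they had 47 and 98, so the genotypes overlapped for both. Siglec1, the macrophage lectin sialoadhesin, had 0 reads in each WT library and 13, 8 and 16 in the BrmKO libraries, and it did not pass the filter on low counts. Svep1, a matrix protein that takes part in TIE1 signalling, had 23 reads in BrmKO replicate 2 and 0 in the other 5 libraries.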
